A study of Lotus japonicus with 6 samples.

Results

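The sterol and triterpenoid cytochrome P450s of Lotus japonicus were followed in leaves of wild type plants and of lines labelled as LjMyb14 overexpressors. Members were the array names that carry the family codes CYP51, CYP72, CYP710, CYP716, CYP93E or CYP88D, which gave 30 genes of 2881 genes on the array, each with 2 probes. The code CYP72A contributed 13 genes, CYP716A 12, CYP710A 3, and CYP51 and CYP93E 1 each, while no name carried CYP88D. All plants were of the accession MG20 and were grown in vitro. The wild type group had 3 samples. The other group had 3 independent transgenic lines, 1 sample each, in which the Lotus ubiquitin promoter drives LjMyb14 constitutively. The sources used here give neither plant age nor the number of plants per sample. RNA came from whole leaves, so fewer cells of a type and less RNA per cell cannot be told apart in any value below.

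Plants build sterols and triterpenoids from the same precursor, oxidosqualene. Oxidosqualene cyclases fold it into sterol or triterpene skeletons, and cytochrome P450s then oxidise these at set carbons. CYP51 removes a methyl group from sterol precursors and CYP710A desaturates the sterol side chain to form stigmasterol. In the triterpenoid branch of legumes, enzymes of the CYP93E, CYP716A and CYP72A families oxidise beta-amyrin and related skeletons, and UDP-glycosyltransferases then add sugars to give saponins. Membership in a family does not show which reaction a Lotus enzyme carries out, and the names are the array's own.

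The arrays were custom 1-colour Agilent arrays, 1 for each sample. Levels are log2 signals with the 75th percentile of the array set to 0, and a fold change is lines over wild type. Wild type arrays 1 and 3 were closer to each other than repeated spots allow: relative to the scatter of repeated spots, the variance of their difference was 0.545, and that of the remaining pairs of like samples was 2.27 to 8.61. Since this is less than the sampling noise they were averaged and counted as 1 sample, which leaves n = 2 for wild type and n = 3 for the lines. The p-values measure the spread between these samples, and nothing in the labels tells which plants each came from. At the LjMYB14 probe that could be tested the log2 fold change was 0.11 (95% confidence interval -1.15 to 1.36), and the other LjMYB14 probe was well above background on 1 line array only. The labelled overexpression was therefore not seen at these probes, and whether they lie within the introduced sequence is unknown here. All directions below are between libraries labelled as lines and libraries labelled as wild type. LjMYB76a, another MYB gene name, was higher in every line, with log2 fold changes of 7.54 and 7.68 at its probes. Whether both names refer to the introduced gene cannot be told from these files. No array name began with the codes of the leaf markers looked for (RBCS, CAB, LHC and RCA). Names with letters before the code were not searched, so the tissue was not checked against these markers. Of 53 tested MADS-box genes, a family with many floral regulators, 1 rose (LjMADS19, at a log2 fold change of 2.59) and 1 fell (LjMADS43, at -2.17), against 2.21% and 1.09% of all genes, with a median of 0.24. Their part in the results below was not tested.

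Signal was measurable for most of the family. Testing required a signal well above background on at least 3 of the 6 arrays, and 45 of 60 member probes, from 25 genes, met this, against 2487 of 2881 genes on the whole array. All but 1 of these 45 probes were well above background on all 6 arrays. The 5 genes without a tested probe were CYP716A_LjSGA_022352.1, CYP716A_LjSGA_061908.1, CYP716A_chr2.LjT42I05.250.nd, CYP72A_LjSGA_037243.1 and CYP72A_LjSGA_061912.1. For CYP72A_LjSGA_037243.1 and CYP72A_LjSGA_061912.1, 1 probe each was well above background on 1 of the 3 line arrays and on no wild type array. The mean of the lines as read was 1.65-fold and 1.34-fold above that of wild type. Wild type levels were here raised to at least the lowest level well above background. These folds are not strict bounds, since the remaining line arrays were not well above background either. The groups overlapped at both genes. At CYP72A_LjSGA_037243.1 a single array carries the difference, line 2, at 3.04 above the wild type mean. Lines 1 and 3 differed from that mean by 0.25 and -0.53. At CYP72A_LjSGA_061912.1 lines 1, 2 and 3 differed from the wild type mean by 1.02, -0.36 and 1.46.

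Changes were called with limma where p, adjusted by Benjamini-Hochberg over all 5039 tested probes, was under 0.05, and each gene was counted at its brightest tested probe. Of the 25 tested genes, none rose and 1 fell, CYP716A_LjSGA_137705.1. Over all 2487 tested genes 2.21% rose and 1.09% fell, or 3.3% in either direction, so the share called here is near that of the array. By probe, 0 of 45 rose and 1 fell, against 2.3% and 1.13% of all tested probes. A difference of at least 2-fold was seen at 1 of the 25 genes and at 11.3% of all genes. At an unadjusted p under 0.05 the count was 7 of 25, against 19.5% of all genes. The median log2 fold change was -0.37, against -0.09 over all genes and -0.25 over 283 other cytochrome P450 genes, of which 7 rose and 9 fell. The gap to all genes depended on the processing and on line 2: the medians of members and of all genes were -0.094 and -0.068 with normexp background correction, -0.16 and -0.07 when slide row was a block, and -0.14 and -0.04 without line 2. All 3 lines lay below all 3 wild type arrays at 11 of the 25 genes, a pattern held by 21.1% of all genes. It was held by 29.0% of the other cytochrome P450 genes. Among these it was held by 38.1% of the P450s of brassinosteroid metabolism and 44.4% of those of gibberellin and abscisic acid metabolism. All lines lay above all wild type arrays at 1 gene, against 15.4% of all genes. The members were chosen with earlier results known, so these counts describe them and carry no test of the list. The median was -0.16, -0.42 and -0.19 in lines 1, 2 and 3.

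**Figure D1:**
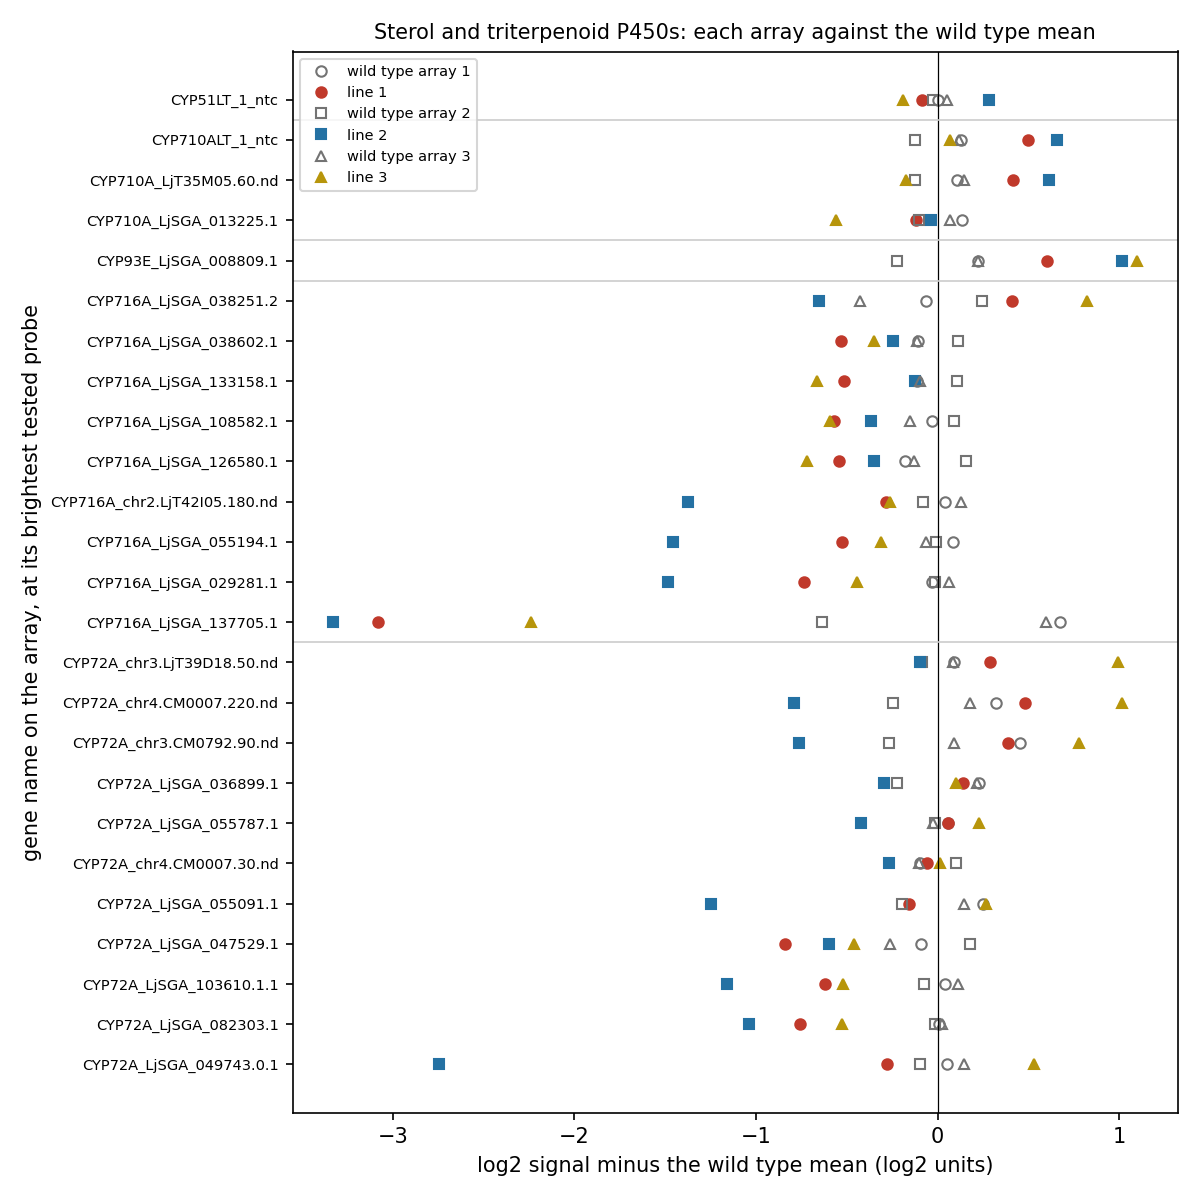
Log2 signal of each array minus the wild type mean (x axis, log2 units) for the 25 tested genes (y axis), each at its brightest probe and grouped by family. Open grey symbols are the 3 wild type arrays and filled coloured symbols the 3 lines; CYP716A_LjSGA_137705.1 is lowest in the lines, with differences of -3.08, -3.33 and -2.24, while CYP93E_LjSGA_008809.1 has all lines above all wild type arrays.

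The sterol genes showed no called change. CYP51LT_1_ntc, the array's only gene coded for the sterol demethylase family, had levels of 4.08, 4.05 and 4.13 on wild type arrays 1, 2 and 3 and of 3.99, 4.36 and 3.89 in lines 1, 2 and 3. The groups overlapped, with lines 1 and 3 below and line 2 above the wild type arrays. Its log2 fold change was 0.00 (95% confidence interval -0.56 to 0.57, limma adjusted p = 0.996), and its second probe gave 0.04. The arrays were few, and differences larger than this interval also went uncalled at other member genes.

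The 3 CYP710A genes, coded for the sterol side-chain desaturase family, had log2 fold changes of 0.41 for CYP710ALT_1_ntc, 0.28 for CYP710A_LjT35M05.60.nd and -0.24 for CYP710A_LjSGA_013225.1, none of them called (limma adjusted p = 0.454, 0.671 and 0.661). The 2 probes of CYP710ALT_1_ntc differed. At the brighter probe wild type gave 0.08, -0.17 and 0.08 and the lines 0.46, 0.61 and 0.03, so that line 3 lay among the wild type arrays. At the dimmer probe wild type gave -0.93, -0.95 and -0.76 and the lines 0.49, 0.65 and -0.13, with every line above every wild type array. The log2 fold change there was 1.24 (SE 0.29, limma adjusted p = 0.0952), or 2.36-fold. With all 6 arrays counted singly it was 1.22 (limma adjusted p = 0.0230). That setting takes the closely alike wild type arrays 1 and 3 as separate samples, and it called 12.3% of all genes, against 3.3% as reported. A difference of 0.83 between the probes was the largest of any member gene with 2 tested probes, and the transcripts that each probe detects are not known here. CYP710ALT_1_ntc and CYP710A_LjT35M05.60.nd followed each other closely, differing on no array by more than 0.18 after each was centred on its own mean.

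CYP93E_LjSGA_008809.1 was the member gene with the highest log2 fold change at the brightest probe. The family is known from soybean, where its enzyme hydroxylates beta-amyrin on the way to soyasapogenols. Levels at its brighter probe were 2.59, 2.14 and 2.59 on wild type arrays 1, 2 and 3 and 2.96, 3.38 and 3.46 in lines 1, 2 and 3. Every line lay above every wild type array, with line 1 the nearest to them. The log2 fold change was 0.90 (SE 0.26, 95% confidence interval 0.25 to 1.56, 1.87-fold), and the gene was not called (limma adjusted p = 0.149). The dimmer probe gave 0.70 (limma adjusted p = 0.255). The same locus is on the array a second time as CyP93_05_LjSGA_008809.1, a name that the choice of members did not take in, and its probes gave 0.84 and 0.83. These 4 probes read the same samples and are not replicates. The log2 fold change at the brighter CYP93E probe stayed positive in all 17 alternatives, from 0.60 with the slide row as a block to 1.13 without wild type arrays 1 and 3, and its adjusted p ranged from 0.0523 to 0.918.

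**Figure D2:**
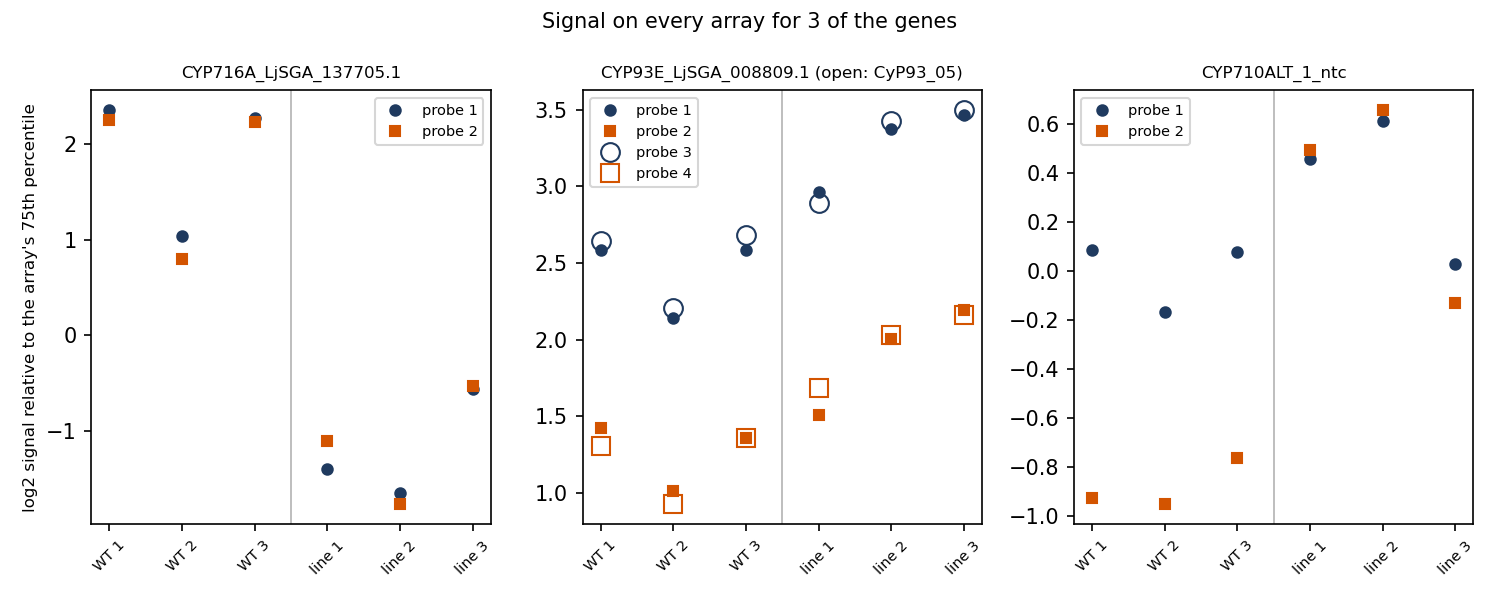
Log2 signal with the array's 75th percentile at 0 (y axis) on each of the 6 arrays (x axis; WT is wild type) for CYP716A_LjSGA_137705.1, CYP93E_LjSGA_008809.1 and CYP710ALT_1_ntc. Each symbol is 1 probe on 1 array, probe 1 being the brighter, and the open symbols are the probes named CyP93_05; both CYP716A_LjSGA_137705.1 probes drop below 0 in every line, and the dimmer CYP710ALT_1_ntc probe has every line above every wild type array while the brighter one has line 3 among them.

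Genes coded CYP716A, a family whose Medicago truncatula member oxidises beta-amyrin to oleanolic acid, included the only called member. Of 9 tested genes 1 fell and none rose, against 1.09% and 2.21% of all genes. A negative log2 fold change was found at 8, against 1441 of all 2487 tested genes and 190 of 283 other cytochrome P450 genes. The same 8 had all 3 lines below all 3 wild type arrays, against 21.1% of all genes and 29.0% of the other cytochrome P450 genes. The median log2 fold change was -0.54, with -0.53, -0.65 and -0.44 in lines 1, 2 and 3. In every alternative tried at the level of probes at least 8 of the tested CYP716A genes were negative, and the median lay between -0.77 (scaling on spike-in spots, which moved the median of all genes by -0.23) and -0.33 (normexp background correction).

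CYP716A_LjSGA_137705.1 carried the only call. At its brighter probe the levels were 2.36, 1.04 and 2.28 on wild type arrays 1, 2 and 3 and -1.41, -1.65 and -0.56 in lines 1, 2 and 3. The groups were clearly apart, although wild type array 2 lay 1.27 below the mean of arrays 1 and 3, a gap whose median size over all genes was 0.22. The mean went from 1.68 ± 0.90 (SD, n = 2) to -1.20 ± 0.57 (SD, n = 3), a log2 fold change of -2.88 (SE 0.50, 95% confidence interval -4.14 to -1.63), or 7.38-fold lower, with a limma adjusted p of 0.0498. The second probe gave 2.25, 0.80 and 2.23 in wild type and -1.10, -1.77 and -0.54 in the lines, for a log2 fold change of -2.66 (limma adjusted p = 0.0742). The adjusted p lies at the threshold. Whichever array was left out, the adjusted p was over the threshold, with log2 fold changes from -3.52 without wild type array 2 (limma adjusted p = 0.131) to -2.25 without wild type arrays 1 and 3 (limma adjusted p = 0.286). Both of these settings leave a single wild type sample, assumed to vary as the lines do, so their p-values rest on the spread of the lines. Leaving out any of the remaining arrays gave adjusted p-values from 0.0507 (without wild type array 1) to 0.192 (without line 1). With the slide row as a block it was -3.08 (limma adjusted p = 0.240), which equals line 1 against the wild type arrays of its row. The direction was the same in all 17 alternatives, and the call held in 6. With the 6 arrays counted singly, where wild type arrays 1 and 3 are separate samples, it was -3.10 (limma adjusted p = 0.0101). In that setting 12.3% of all genes were called.

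The other CYP716A genes had smaller differences, none of them called. CYP716A_LjSGA_029281.1 gave -2.83, -2.82 and -2.74 in wild type and -3.54, -4.28 and -3.24 in the lines, for a log2 fold change of -0.89 (limma adjusted p = 0.245). Its other probe, well above background on no array, was not tested and read the other way, by 0.62. CYP716A_LjSGA_055194.1 gave -2.71, -2.80 and -2.86 in wild type and -3.32, -4.25 and -3.11 in the lines, for a log2 fold change of -0.76 (limma adjusted p = 0.342), while its dimmer probe gave -0.12 with overlapping groups. Line 2 was the lowest array at the brighter probe of both genes, and also at CYP716A_chr2.LjT42I05.180.nd, where line 2 read -3.41 and lines 1 and 3 read -2.32 and -2.30. After centring, CYP716A_LjSGA_055194.1 differed from CYP716A_LjSGA_029281.1 by at most 0.18 and from CYP716A_chr2.LjT42I05.180.nd by at most 0.17 on any array. At CYP716A_LjSGA_126580.1 line 2 was instead the line nearest to wild type: its brighter probe gave 1.63, 1.96 and 1.67 in wild type and 1.26, 1.45 and 1.08 in the lines (log2 fold change -0.54, limma adjusted p = 0.263). Line 2 was nearest at both probes of this gene and of CYP716A_LjSGA_133158.1, whose log2 fold change was -0.43. CYP716A_LjSGA_108582.1 and CYP716A_LjSGA_038602.1, at -0.51 and -0.37, also had line 2 nearest at the brighter probe, but at the dimmer probe line 2 was the farthest from wild type. Such genes may be read in part by each other's transcripts, or may be pieces of 1 gene in an unfinished assembly, and neither was tested. Whether the 8 genes are separate observations is thus not known. CYP716A_LjSGA_137705.1 was in none of the closely matching pairs, which were those within 0.2 on every array. Its levels varied far more than those of the other CYP716A genes, so no such match was possible, and its absence carries no information. CYP716A_LjSGA_038251.2, well above background on 1 wild type and 2 line arrays, had the family's only positive log2 fold change, 0.19, with the groups overlapping.

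CYP72A is a large family that includes triterpene oxidases in Medicago truncatula and licorice, and an enzyme of another terpenoid pathway, secologanin synthase, in Catharanthus roseus. None of the 11 tested CYP72A genes was called. Their median log2 fold change was -0.10, close to that of all genes, and 8 were negative (6 to 9 under the other scalings). The lines disagreed with each other: the median difference from wild type was -0.06 in line 1, -0.77 in line 2 and 0.23 in line 3. Line 2 was the lowest of the 6 arrays at 10 of the 11 genes, whereas it was the lowest at 30.8% of all tested genes. Without line 2, 4 of the 11 genes were negative and the median was 0.12. Line 2 also stood apart on the E1A spike-in spots, RNA of known amount added before labelling, whose mean level was 0.81 there and between -0.05 and 0.25 on the remaining 5 arrays. The part of this in the CYP72A values was not tested.

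At CYP72A_LjSGA_049743.0.1, the lowest log2 fold change of the family, line 2 read -7.06 while lines 1 and 3 read -4.59 and -3.78 and the wild type arrays -4.26, -4.41 and -4.17. The value of -0.83 (95% confidence interval -3.22 to 1.56) thus rests on line 2. CYP72A_LjSGA_082303.1 and CYP72A_LjSGA_103610.1.1 were lower in every line. The former gave -1.18, -1.20 and -1.16 in wild type and -1.94, -2.22 and -1.71 in the lines, for a log2 fold change of -0.77 (limma adjusted p = 0.155). The latter gave 0.04, -0.08 and 0.11 in wild type and -0.62, -1.16 and -0.52 in the lines, also -0.77 (limma adjusted p = 0.203). With all 6 arrays counted singly 1 probe of each passed the threshold (limma adjusted p = 0.0350 and 0.0325), in the second gene at its dimmer probe. In that setting wild type arrays 1 and 3 count as separate samples and 12.3% of all genes were called, against 3.3% as reported. The 2 genes followed each other within 0.13 on every array after centring, so they may not be separate. CYP72A_LjSGA_047529.1, at -0.63 (limma adjusted p = 0.220), was the only other CYP72A gene with all lines below all wild type arrays.

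The positive CYP72A values came mainly from line 3. CYP72A_chr3.LjT39D18.50.nd gave -0.20, -0.38 and -0.21 in wild type and 0.00, -0.39 and 0.70 in the lines, for a log2 fold change of 0.40 (95% confidence interval -0.49 to 1.28). CYP72A_chr4.CM0007.220.nd gave 0.24 and CYP72A_chr3.CM0792.90.nd gave 0.13, and in both the groups overlapped with line 2 lowest and line 3 highest. CYP72A_chr4.CM0007.30.nd, on the same clone as CYP72A_chr4.CM0007.220.nd, varied little: 1.68, 1.87 and 1.67 in wild type and 1.72, 1.51 and 1.79 in the lines. Its log2 fold change was -0.10 (95% confidence interval -0.61 to 0.41). At their brighter probes the pair on this clone thus differed in their spread among the lines, with SDs of 0.93 and 0.145 (n = 3). The other probe of CYP72A_chr4.CM0007.220.nd was well above background on no array.

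The paired probes of a gene mostly gave the same direction. Both probes were tested for 20 genes, and the log2 fold changes had the same sign at 18 and opposite signs at 2. The median gap between the probes was 0.21. The genes of opposite sign were CYP710A_LjT35M05.60.nd (0.28 and -0.04) and CYP72A_chr4.CM0007.30.nd (-0.10 and 0.15), both close to 0.

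**Figure D3:**
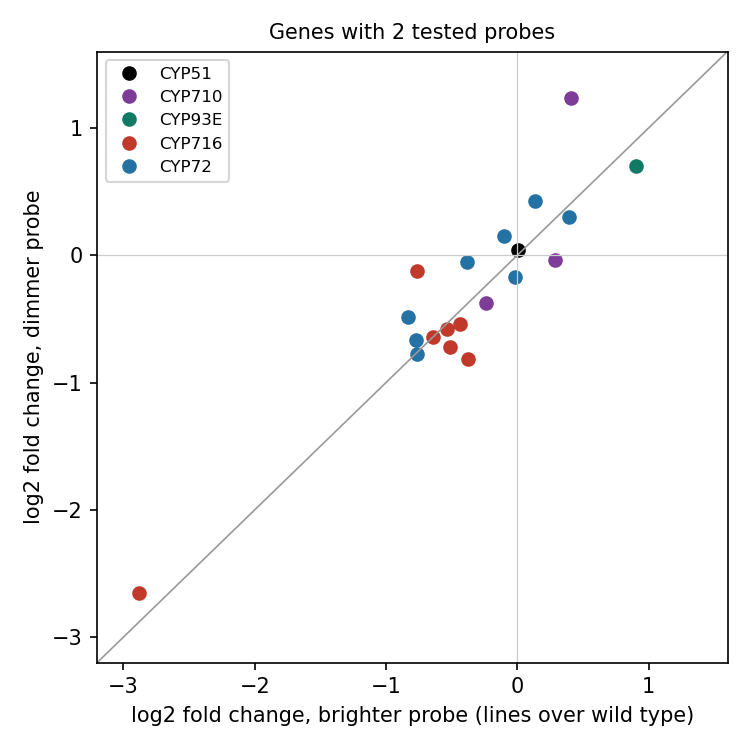
Log2 fold change (lines over wild type) at the dimmer probe (y axis) against the brighter probe (x axis) for the 20 member genes with 2 tested probes, coloured by family; the grey diagonal marks equal values. CYP716A_LjSGA_137705.1 lies at the lower left (-2.88 and -2.66), and CYP710ALT_1_ntc lies farthest from the diagonal (0.41 and 1.24).

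Neighbours in the genome were compared where array names share a clone with a member. On clone LjT42I05 of chromosome 2, CYP716A_chr2.LjT42I05.180.nd had a log2 fold change of -0.64, with the same value at both probes, and its neighbour CYP725A_chr2.LjT42I05.200.nd gave -0.63 at its brighter probe and -1.44 at the other, which was well above background on 3 wild type and 2 line arrays. Another gene of this clone, CYP725A_chr2.LjT42I05.160.nd, gave -2.06 at 1 probe and -0.25 at the other, with 2 wild type and 1 line array well above background. CYP716A_chr2.LjT42I05.250.nd and CYP725A_chr2.LjT42I05.210.nd were not well above background on any array. The glycosyltransferase UGT73B_chr3.LjT39D18.60.nd, next to CYP72A_chr3.LjT39D18.50.nd by its name, gave 0.15. LAC11_chr3.CM0792.230.nd, on the clone of CYP72A_chr3.CM0792.90.nd (0.13), gave -0.80 and -2.37 at its probes (limma adjusted p = 0.117 and 0.0819). None of these was called.

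Other genes connected with the pathway were described from a list of family codes. No array name began with the codes looked for among oxidosqualene cyclases, squalene synthase and epoxidase, HMG-CoA reductase, farnesyl diphosphate synthase or sterol methyltransferase. Names with letters before the code were not searched, so the supply of skeletons was not examined here. For comparison with the counts that follow, 2.21% of all tested genes rose and 1.09% fell. Among 21 tested P450s of brassinosteroid metabolism, a pathway that starts from sterols, 1 rose and 3 fell. The median log2 fold change was -0.46. CYP85_LjSGA_048957.1, coded for the family of brassinosteroid C6-oxidases, rose by 1.97 on the log2 scale (limma adjusted p = 0.0268), and the genes that fell were CYP724A_chr2.CM0262.110.nd, CYP724A_chr2.CM0262.120.nd and CYP90C_LjSGA_038968.1. Of 27 P450s of gibberellin and abscisic acid metabolism 1 fell, CYP88A_chr2.CM0021.680.nc, coded for a family of gibberellin synthesis, at a log2 fold change of -3.43 (limma adjusted p = 0.0125), and none rose (median -0.41).

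The glycosyltransferase families known for saponin and sterol conjugation differed in their counts. In UGT91, a family that includes enzymes extending the sugar chains of soybean saponins, 3 of 12 tested genes fell and none rose (1.09% and 2.21% of all genes), and the median log2 fold change was -0.31. UGT91H_LjSGA_060963.2, UGT91H_LjSGA_046960.1 and UGT91H_LjSGA_029279.2 had log2 fold changes of -1.48, -1.44 and -1.37 (limma adjusted p = 0.0498, 0.0358 and 0.0366). Each was called at 1 probe only, and the adjusted p of the first lies at the threshold. Whether the 3 names are separate genes was not tested. None of 27 tested UGT73, 16 UGT74 and 7 UGT80 genes was called in limma, and their medians were 0.12, -0.42 and -0.12. An unadjusted p under 0.05 was found at 4, 2 and 1 of them, against 19.5% of all genes.

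**Figure D4:**
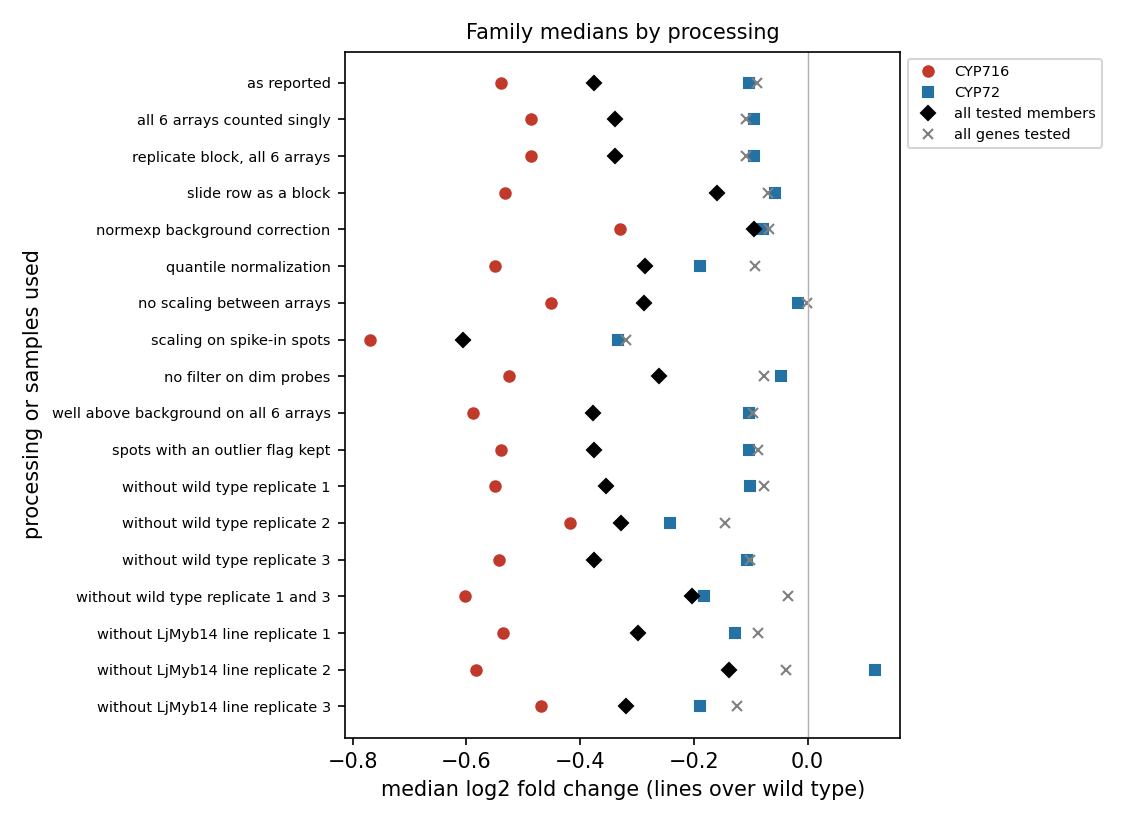
Median log2 fold change (lines over wild type, x axis) of the tested CYP716A genes, CYP72A genes, all members and all genes under each processing choice or set of samples (y axis). The CYP716A median is negative in every row shown, whereas the CYP72A median turns to 0.12 without line 2.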

How the data were processed

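Per the file headers, each 1-colour array was read with Agilent Feature Extraction (version 10.7.3.1 per the submitters' processing notes), and the deposited intensity is background-subtracted and detrended within the array, with no scaling across arrays. The authors' value table repeats that intensity in 91068 of 91068 cells (tolerance 0.0001), with column medians of 5.54 to 6.04 on the log2 scale. Between 71.7% and 78.0% of the 14642 non-control spots per array were well above background and none was saturated. All arrays carried the same scan time.

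From these, log2 intensity minus the array's 75th percentile was computed, outlier-flagged spots (32 to 78 an array) were dropped and spots of 1 probe averaged. A probe was tested if at least 0.5 of its spots were well above background on at least 3 of 6 arrays. Tests used limma 3.58.1 in R 4.3.3 without a block, with 3 residual degrees of freedom and 2.54 from the prior. The number of arrays therefore limits the precision. When the fit was tested on simulated data most 2-fold changes were not called, so a gene not called here may still have changed. Where every array of a group was dim, its levels were set to the higher of the lowest level well above background and its own. The fold given there takes the levels of the other group as read, so it is a bound only where those were well above background.

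Names sharing a locus identifier counted as 1 gene, at the brightest tested probe. Genes named are all members of families with up to 4 genes. In larger families they are the called gene, the highest wild type mean, the 3 largest rises and falls, and genes with separated groups and a 2-fold difference. Other CYP716A and CYP72A genes and clone neighbours were named after their values were seen, as members sharing a clone or a pattern. Members and lists were chosen with earlier results of these data known. No member name or locus matched the RefSeq gene table, and no probe sequence was used here. Normexp background correction used median spot signals, since the files give no mean signal. Alternatives were scaling, background correction, filters, blocks and left-out arrays.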

Additional observations from a re-analysis of the deposited data

How the results depend on the processing

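No member gene was called higher in any of the 18 alternatives. The count called lower, 1 as reported, stayed at 1 in 5 of them. It was 2 with all 6 arrays counted singly, where 12.3% of all genes were called in either direction. It was 0 with the slide row as a block, without scaling between arrays, with scaling on spike-in spots, without the filter on dim probes and with the mean of all tested probes of a gene (limma; 1, 3, 1, 6 and 10 genes at an unadjusted p under 0.05). All wild type arrays and line 1 lie in slide row 2, so the row block compares within that row alone, and without the filter more genes are tested. Leaving out arrays gave 0 to 0 genes called lower (1 to 9 at an unadjusted p under 0.05) and medians of -0.38 to -0.14 for the member genes, the highest without line 2, and -0.20 without wild type arrays 1 and 3. The median was -0.16 with the slide row as a block, -0.094 with normexp and -0.61 with scaling on spike-in spots, where the median of all genes moved by -0.23 and 20 of 25 members were negative. The cause was not tested. Of all member probes under the alternatives, 748 values stayed on the same side of the threshold with no called value reversed, 11 lost the call (all at CYP716A_LjSGA_137705.1) and 5 gained it. Same-numbered wild type arrays and lines share only a number in the labels. Correlations of their deviations were 0.01, 0.17 and 0.07, and those of differently numbered arrays and lines ran from -0.21 to 0.25. The arrays are too few, and wild type arrays 1 and 3 too alike, for these values to decide whether the numbers pair samples. With the replicate block on all 6 arrays, 1 member gene was called lower and none higher. Members without a tested probe have no fitted value.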
